A study of Mus musculus with 3 samples.

Results

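Presomitic paraxial mesoderm cells were taken from single-cell RNA libraries of gastrulating mouse embryos by a rule on detected genes. A cell was a member when at least 2 of the 5 genes Tbx6, Dll1, Hes7, Msgn1 and Aldh1a2 had a UMI (a unique molecular identifier, 1 counted RNA molecule) and none of the 6 genes Eomes, Sox2, Hand1, Etv2, Tcf15 and Alx1 had one. The rule found 962 members among 21573 kept cells. There were 3 libraries of normal embryos of the ARC mouse strain, 1 per group: embryos at E7.0 (embryonic day 7.0), embryos at E7.25, and the posterior region of embryos at E7.5. Cells were dissociated with trypsin and captured in droplets, and the number of embryos pooled in each library is not given in the sources used here. Stage and library cannot be told apart, nor can the dissected region at E7.5, and no test across embryos was possible.

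Presomitic mesoderm is the unsegmented paraxial tissue that leaves the primitive streak and the later tail bud and is cut into somites, the precursors of vertebrae, skeletal muscle and dermis. WNT and FGF signals keep its posterior end immature, retinoic acid made by Aldh1a2 acts from the anterior side, and a NOTCH oscillator that includes Hes7 and Lfng sets the rhythm of segmentation in the mouse. Tbx6 and Msgn1 are transcription factors needed for paraxial rather than neural fate.

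The proximal promoters of 4 genes are shown because the results below turn on those genes and because each window holds a match to a motif searched. Each is the 250 bases before the RefSeq transcription start on GRCm38.p6, on the strand of the gene, and 5 of the 5 rule markers had an entry. Capitals mark matches to a motif searched on both strands.
Hes7: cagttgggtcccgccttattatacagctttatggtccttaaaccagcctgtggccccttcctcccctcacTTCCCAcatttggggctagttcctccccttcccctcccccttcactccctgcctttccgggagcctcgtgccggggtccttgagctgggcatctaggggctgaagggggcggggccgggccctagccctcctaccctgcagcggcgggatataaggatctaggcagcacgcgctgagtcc
Msgn1: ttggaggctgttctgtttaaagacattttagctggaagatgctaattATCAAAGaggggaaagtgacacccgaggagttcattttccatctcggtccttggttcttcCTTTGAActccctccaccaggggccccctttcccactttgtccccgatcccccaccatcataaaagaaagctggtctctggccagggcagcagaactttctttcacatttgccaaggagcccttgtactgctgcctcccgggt
Hoxb1: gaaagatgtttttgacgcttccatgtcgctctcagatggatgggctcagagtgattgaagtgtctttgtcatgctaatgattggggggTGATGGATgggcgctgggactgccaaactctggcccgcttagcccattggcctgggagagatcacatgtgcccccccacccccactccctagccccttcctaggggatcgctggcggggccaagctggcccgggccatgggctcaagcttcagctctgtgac
Cyp26a1: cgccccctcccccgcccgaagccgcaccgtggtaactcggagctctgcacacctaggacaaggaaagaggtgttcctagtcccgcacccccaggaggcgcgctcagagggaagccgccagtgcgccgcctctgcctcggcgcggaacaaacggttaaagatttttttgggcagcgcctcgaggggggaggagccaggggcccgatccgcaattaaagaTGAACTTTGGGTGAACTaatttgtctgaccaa

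The Hes7 window (chr11:69120203-69120452, plus strand) held the core TGGGAA of the NOTCH effector RBPJ on its opposite strand, and 21.52% of 27025 promoters of that length held it. The Msgn1 window (chr12:11208949-11209198, minus strand) held the WNT effector core, CTTTGAA or CTTTGAT, in 2 places, against 7.671% of promoters with at least 1. An RBPJ core also lay in the Msgn1 window and is not in capitals. The Hoxb1 window (chr11:96365508-96365757, plus strand) held the PBX and HOX pattern TGATNNAT, found in 7.915% of promoters. The Cyp26a1 window (chr19:37697558-37697807, plus strand) held 1 spelling of the retinoic acid receptor repeat, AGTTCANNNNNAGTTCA, on the opposite strand, with 5 free bases between its parts. Only that spelling was searched, and 0.0222% of promoters held it. The share is thus for those letters, not for receptor sites at large. No match shown overlapped another. A match describes these letters only, and no binding was measured.

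By the full rule, members were a smaller share of the E7.0 library than of the later libraries. There were 72 members at E7.0, or 0.907% of 7941 kept cells (exact 95% Clopper-Pearson interval 0.710 to 1.14%). At E7.25 there were 149 of 5194 (2.87%, 2.43 to 3.36%). In the E7.5 posterior library there were 741 of 8438 (8.78%, 8.19 to 9.41%). The 3 intervals do not overlap, but here and throughout they cover counting error only, and UMIs and cells of 1 library are not separate embryos. The median member had 11596 UMIs in the E7.0 library, 8268 in the E7.25 library and 9125 in the E7.5 posterior library. The median share of mitochondrial UMIs per member was 2.26%, 2.35% and 3.54% in the same order of stage, and its part in the results was not tested.

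The rule rests on few molecules. Of the members, 63 in the E7.0 library, 98 in the E7.25 library and 343 in the E7.5 posterior library had exactly 2 of the 5 markers, and 33, 50 and 153 were members through 2 single UMIs. Requiring 3 markers left 9, 51 and 398 cells, or 0.113%, 0.982% and 4.72% of kept cells. Before the 6 excluded genes were applied, 420, 327 and 1393 cells had 2 or more markers, or 5.29%, 6.3% and 16.5% of kept cells, so the E7.0 and E7.25 shares lay closer together. Of the 420 at E7.0, 321 had a UMI of Eomes. Just outside the rule, 179, 198 and 663 cells had exactly 1 marker and no excluded gene. A further 205, 102 and 458 cells had 2 or more markers but 1 excluded gene, most often Eomes, the T-box factor of the streak and nascent mesoderm. In addition, 40 cells at E7.5 posterior met the rule but had under 1000 detected genes, and 10 were over the limit of 10% mitochondrial UMIs.

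The markers in the rule were not found alike in the 3 libraries. Tbx6 (chromosome 7, 126781483 to 126785560 on GRCm38) had a UMI in 80.6% of members in the E7.0 library, 79.2% in the E7.25 library and 73.1% in the E7.5 posterior library. Dll1 (chromosome 17, 15367354 to 15376872), a NOTCH ligand, was detected in 75%, 67.8% and 73.4%, and Hes7 (chromosome 11, 69120404 to 69124055) in 54.2%, 55.7% and 62.3%. Msgn1 (chromosome 12, 11208360 to 11208972) was detected in 0 of 72 members in the E7.0 library, 1 of 149 in the E7.25 library and 53 of 741 in the E7.5 posterior library. Aldh1a2 (chromosome 9, 71215789 to 71296243) was detected in 2 members in the E7.0 library, 50 in the E7.25 library and 442 in the E7.5 posterior library. The E7.0 members were thus chosen almost wholly by Tbx6, Dll1 and Hes7, and are called below by the rule, as E7.0 members. All values in this paragraph describe the choice of cells.

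**Figure D1:**
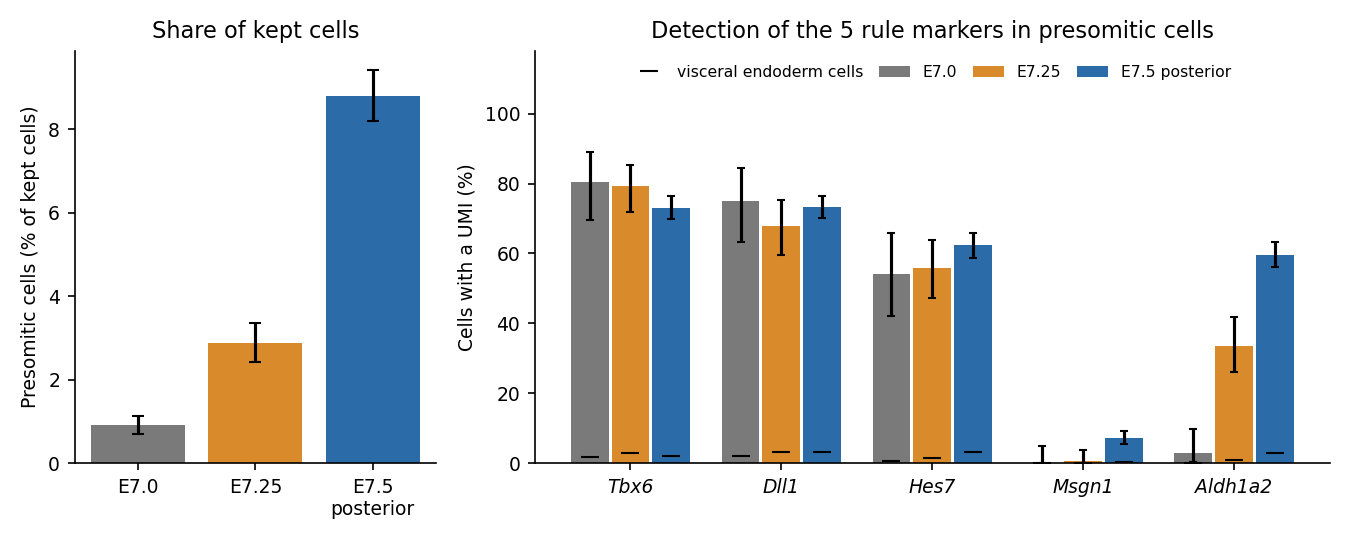
Left: members as a percentage of kept cells in each library, with 95% Clopper-Pearson intervals. Right: percentage of members with a UMI of each rule marker, with the same intervals, and short black lines for visceral endoderm cells of the same library. Members made up 0.907%, 2.87% and 8.78% of cells, and Aldh1a2 was detected in 2.78%, 33.6% and 59.6% of them.

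Detection depends on depth, so each cell was also thinned to 5000 UMIs. Aldh1a2 was then detected in 0 of 72 members at E7.0, which allows up to 4.99%, in 22% of E7.25 members and in 39.7% of E7.5 posterior members. In visceral endoderm cells, an extraembryonic type that should lack the gene, it was detected in 0%, 0.257% and 1.11%. Unthinned, Aldh1a2 was in 2.78%, 33.6% and 59.6% of members. Msgn1 after thinning was in 0%, 0.758% and 3.5% of members and in 0%, 0.129% and 0% of visceral endoderm cells.

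Most paraxial markers outside the rule were higher in members than in other cells. Of 14 presomitic markers that the rule did not use, 11 in the E7.0 library, 13 in the E7.25 library and 11 in the E7.5 posterior library were at least 2-fold above the other kept cells of their library. These members were chosen on the same cells, so the contrast is a description. Other kept cells span many types, so it does not set members apart from similar mesoderm. In the E7.5 posterior library, 13 NOTCH and segmentation genes were measured against nascent mesoderm cells. Only the rule markers Dll1 and Hes7 passed 2-fold upward, and Jag1 and Hes1 passed it downward, beside 0.7% and 0.908% of all genes measured. Against rostral paraxial cells, with 14 measured, the same 2 passed upward and Jag1 downward, beside 2.14% and 1.27% of all genes measured. Pcdh19 at E7.0 and Nkd1 at E7.25 also passed upward against nascent cells, with 12 list genes measured in each library. Hes1 passed downward in both. Of all genes measured there, 0.37% and 0.94% passed upward and 1.44% and 1.83% downward. The 14 presomitic markers summed to 1206 CPM (counts per 1000000 UMIs of the class) in E7.0 members, 1645 in E7.25 members and 1539 in E7.5 posterior members. In other cells they summed to 409, 388 and 538 CPM. Nascent mesoderm markers (Mesp1, Eomes, Mixl1 and Lhx1) were also high, at 1827, 754 and 480 CPM in members and 1232, 412 and 444 CPM in other cells, with Eomes at 0 by the rule. At E7.0 their sum was above that of the presomitic markers. The 4 rostral paraxial markers summed to 29.7, 30.1 and 35.3 CPM in members and 17.1, 23.7 and 32.8 CPM in other cells, with Tcf15 and Alx1 at 0 by the rule. Sox1, Sox2 and Pax6, which define neural tissue, summed to 0, 0.773 and 0.409 CPM, and Sox2 is excluded by the rule. Hand1 and Tbx5 of lateral and heart mesoderm were at 0 UMIs in all 3 libraries (Hand1 by the rule), as were Tal1 and Hbb-bh1 of blood and endothelium. The 6 blood and endothelium markers summed to 25.1, 24.0 and 19.8 CPM in members and 58.5, 75.4 and 43.3 CPM in other cells. Of these Lmo2, a blood and endothelial cofactor, was higher in members, at 18.3, 20.1 and 14.2 CPM, against 5.04, 8.52 and 8.14 CPM in other cells. The caudal epiblast markers summed to 769, 757 and 853 CPM in members and 971, 681 and 916 CPM in other cells. Of the sums in members, Pou5f1 gave 640, 579 and 635 CPM.

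Visceral endoderm markers were lower in members than in other cells, and part of their UMIs lay in a few cells. The 6 markers, Ttr, Apoa1, Apob, Amn, Cubn and Hnf4a, summed to 208 CPM in the E7.0 library, 209 in the E7.25 library and 76.8 in the E7.5 posterior library in members. In other cells of those libraries they summed to 1184, 2406 and 588 CPM. In members, 1, 1 and 3 cells also met a rule for visceral endoderm, and without them the sums were 31.9, 92.1 and 23.7 CPM. One cell held 89.1% of the Ttr UMIs of E7.0 members, and 1 cell held 61.1% of those at E7.5 posterior. At E7.25, 1 cell held 66.7% of the Ttr UMIs, and 24 of 149 members had at least 1.

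T was lowest and both Mesp genes were highest in E7.0 members. T (brachyury, the factor of streak and axial progenitors) was at 336 CPM in E7.0 members, 746 in E7.25 members and 638 in E7.5 posterior members. Mesp1, a basic helix-loop-helix factor of nascent mesoderm, was at 1404, 595 and 384 CPM. Mesp2, which marks the segment border in mouse, was at 52.5, 16.2 and 12.4 CPM. Foxc1 was at 20.6, 28.6 and 35.8 CPM and Foxc2 at 29.7, 26.3 and 32.3 CPM, which are forkhead factors of paraxial mesoderm.

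Between E7.5 posterior and E7.25 members, 1.46% of 5475 genes at 20 CPM or more were at least 2-fold higher and 1.22% at least 2-fold lower. The 8 measured T-box and paraxial genes, which include the rule marker Tbx6, lay within 2-fold, as did most genes. T had a log2 ratio of -0.23 (95% interval -0.33 to -0.12) and Mesp1 of -0.63 (-0.75 to -0.52). In other kept cells, whose mix of types also differs, the same ratios were 0.58 and 0.10. The list had a median of -0.14, against -0.07 over all genes.

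Of 11 measured NOTCH and segmentation genes, which include the rule markers Dll1 and Hes7, none was 2-fold apart at E7.5 posterior against E7.25. With so few of all genes past 2-fold, this count says nothing particular about the list. Dll3, a divergent NOTCH ligand, was at 129 CPM in the E7.0 library, 102 in the E7.25 library and 104 in the E7.5 posterior library. Lfng, which modifies NOTCH receptors with sugar, was at 35.4, 28.6 and 27.1 CPM. Pcdh19, a protocadherin of segmenting mesoderm, was at 48.0, 81.9 and 114 CPM. Hes1, another NOTCH target, was at 34.3, 6.18 and 16.6 CPM, below the 20 CPM limit in both later libraries.

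Among WNT and FGF genes, Sp8 and Fgf8 passed 2-fold between E7.5 posterior and E7.25 members. Rspo3, a secreted amplifier of WNT signals, was at 127 CPM in the E7.0 library, 243 in the E7.25 library and 238 in the E7.5 posterior library. Lef1, a nuclear effector, was at 246, 211 and 165 CPM. Of 15 measured WNT genes, only Sp8, a zinc-finger factor, was 2-fold higher in E7.5 posterior members than in E7.25 members (log2 1.11, 0.50 to 1.77), and none was lower. Among 13 FGF genes, Fgf8, the main FGF ligand of the posterior axis, was higher: it had 43.4 CPM in E7.0, 24.0 in E7.25 and 79.1 in E7.5 posterior members. Its log2 ratio of E7.5 posterior over E7.25 was 1.72 (1.20 to 2.30), against 1.45 in other cells. Fgf3, another ligand, was at 193, 83.5 and 48.5 CPM by rising stage.

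Cyp26a1 was highest in E7.0 members and lowest in E7.5 posterior members. Aldh1a2, which makes retinoic acid and is a rule marker whose level the choice of cells sets in part, was at 2.28 CPM in the E7.0 library (0.277 to 8.25), 74.2 in the E7.25 library (60.1 to 90.6) and 132 in the E7.5 posterior library (124 to 140). Cyp26a1, which degrades retinoic acid, was at 210 CPM in the E7.0 library (181 to 243), 45.6 in the E7.25 library (34.7 to 58.8) and 21.3 in the E7.5 posterior library (18.0 to 24.9). Its intervals do not overlap between libraries. Cyp26a1 had a log2 ratio of -1.10 (-1.54 to -0.64) at E7.5 posterior against E7.25, and of -0.06 in other kept cells. Members with Aldh1a2 were 50 of 149 at E7.25 and 442 of 741 at E7.5 posterior, and had less Cyp26a1 in both libraries (below). The part of this mix in the ratio was not tested. Crabp2, a retinoic acid binding protein, was at 3.43, 21.6 and 33.6 CPM, and Crabp1, its relative, at 90.2, 132 and 76.0 CPM, by rising stage.

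Hoxb1, Hoxb2, Cdx1 and Cdx2 were higher in the later libraries. Hoxb1 was at 41.1 CPM in the E7.0 library (28.8 to 56.9), 203 in the E7.25 library (179 to 229) and 272 in the E7.5 posterior library (260 to 284). Its log2 ratio of E7.5 posterior over E7.25 was 0.42 in members and 1.16 in other kept cells. Hoxb2 was at 22.8, 35.5 and 81.9 CPM. At E7.5 posterior against E7.25, Hoxb2 was past 2-fold (log2 1.20), and other kept cells gave 1.24, close to the ratio in members. Hotairm1, a non-coding RNA of the Hoxa cluster, was at 1.14, 14.7 and 58.6 CPM. Strand use in counting is not given in the sources used here, so its reads and those of any overlapping gene may be mixed. Cdx2, a caudal homeobox factor, was at 6.85, 58.7 and 87.2 CPM, Cdx1 at 3.43, 40.2 and 42.9 CPM, and Nkx1-2, a marker of caudal progenitors, at 2.28, 21.6 and 39.9 CPM.

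Lefty2, Lhx1 and Tdgf1 of the NODAL list were lower in both later libraries than at E7.0. Lefty2, a NODAL inhibitor, was at 556 CPM in the E7.0 library, 206 in the E7.25 library and 153 in the E7.5 posterior library. Lhx1, a LIM factor of early mesoderm, was at 338, 63.4 and 47.8 CPM. Tdgf1, the NODAL co-receptor also called Cripto, was at 264, 87.3 and 41.4 CPM. Mixl1, a homeobox target of NODAL, was at 85.7, 95.8 and 48.1 CPM. Of 5 measured NODAL genes at E7.5 posterior against E7.25, Tdgf1 and the receptor Acvr2b were at least 2-fold lower and none was higher, with a median of -0.99. Tdgf1 had -1.08 (-1.39 to -0.75) and Mixl1 -0.99 (-1.29 to -0.69), against 0.01 and 0.42 in other cells. Members with Aldh1a2, a larger share at E7.5 posterior, had less of both genes (below). The part of this mix in the ratios was not tested. Acvr2b was at 61.7, 153 and 66.5 CPM by rising stage, so it was past 2-fold higher at E7.25 against E7.0 (log2 1.31) and lower at E7.5 posterior against E7.25 (-1.20, and -1.02 in other cells).

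**Figure D2:**
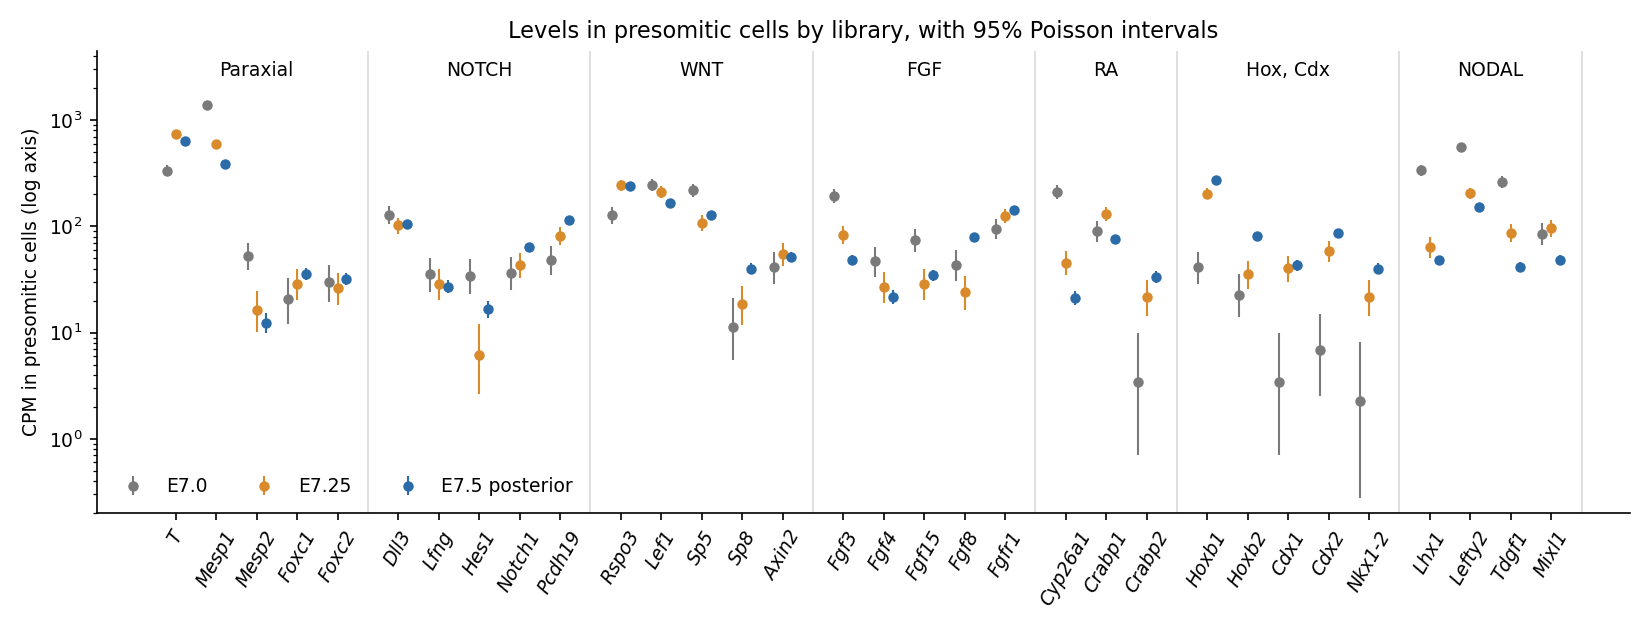
Level of named genes in members, as CPM of summed UMIs on a log axis, with the 3 libraries in order of stage and 95% Poisson intervals. By stage, Mesp1, Cyp26a1, Lefty2 and Tdgf1 lie highest at E7.0, and Hoxb1, Hoxb2 and Cdx2 lie highest at E7.5 posterior.

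Against E7.0 members, 3.4% of 5323 genes were at least 2-fold higher at E7.5 posterior and 1.52% were at least 2-fold lower. Of 6 NODAL genes 3 were lower and none higher, and of 12 FGF genes Fgf3, Fgf4, Fgf15 and Spry4 were lower. Of 17 WNT genes Wnt5b, Sp8 and Wnt8a were higher and Wnt3 was lower. Hoxb1 had a ratio of 2.73 (2.25 to 3.24), against 2.68 in other cells. Mesp1 had -1.87 (-1.97 to -1.77), against -0.97 in other cells.

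For E7.25 against E7.0 members, 6.19% of 5479 genes were higher and 2.97% lower. T had a ratio of 1.15 (0.96 to 1.34), against 0.37 in other cells, and Lhx1 one of -2.42 (-2.79 to -2.06), against -2.76. Scaling by TMM shifts every ratio of this comparison by -0.11 on the log2 scale. The E7.0 members number 72 cells.

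Some extreme ratios between E7.5 posterior and E7.25 were close in members and in other kept cells, which were pooled over many types. The highest included Hist1h2ap, Hotairm1, Hmga1, Fgf8, Dqx1, Polr2l and Ndufb1-ps, and the lowest H19, Hist1h3c, Apoa1, Rbp4, Tnrc6c, Wdr89, Ube2m and Cwc22. Hist1h2ap, a histone gene with near-identical copies, had 2.2 in members and 1.94 in other cells. Ube2m, an enzyme of neddylation, had -1.53 and -1.56. Hmga1, a chromatin protein, had 1.80 and 1.64, and the glycolysis gene Eno1 1.28 and 1.29. By rising stage, Hmga1 was at 106, 31.7 and 110 CPM in members and Ube2m at 154, 376 and 131 CPM. Polr2l was at 71.9, 21.6 and 58.7 CPM and Tnrc6c at 28.6, 97.4 and 29.3 CPM. For these genes the E7.25 library lay apart from both others. Hist1h3c, at 74.2, 72.6 and 18.4 CPM, and Cwc22, at 82.2, 81.9 and 28.5 CPM, instead lay apart at E7.5 posterior. H19, an imprinted RNA, had -1.99 and -2.44. Apoa1 and Rbp4, secreted by visceral endoderm, had 50.4% and 53.4% of their UMIs in 1 cell each at E7.25. Ndufb1-ps shares sequence with a parent gene, so its count is uncertain.

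**Figure D3:**
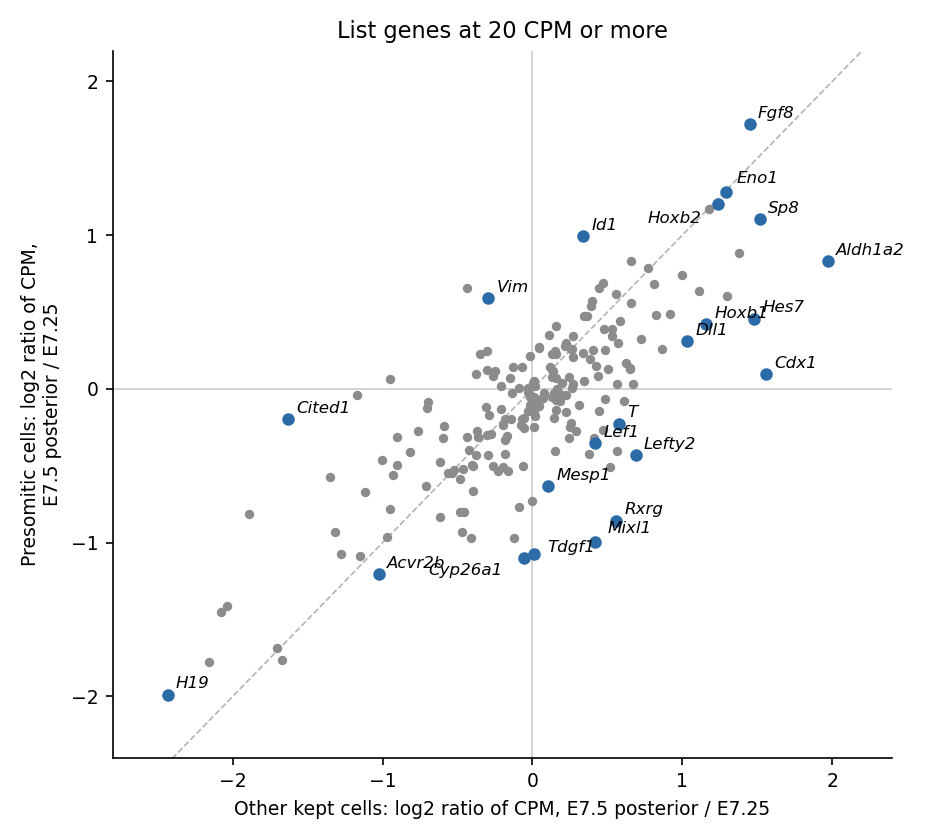
Each point is a list gene at 20 CPM or more. The vertical axis gives the log2 ratio of CPM in members, E7.5 posterior over E7.25, and the horizontal axis the same ratio in other kept cells, with a dashed line where both are equal. Hoxb2 and Eno1 lie near the line, while Mixl1 (-0.99 and 0.42), Tdgf1 (-1.08 and 0.01) and Cyp26a1 (-1.10 and -0.06) lie below it.

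Compared with nascent mesoderm cells, chosen by Mesp1 and Eomes, members had more Hoxb1 in all 3 libraries. At E7.5 posterior 0.7% of 5285 genes were at least 2-fold higher and 0.908% lower, at E7.25 0.94% and 1.83%, and at E7.0 0.37% and 1.44%. Members differ from these cells by the rule, so nothing here is tested. Mesp1 was also detected in 72 of 72 members at E7.0, 100 of 149 at E7.25 and 463 of 741 at E7.5 posterior. Every E7.0 member thus met the Mesp1 part of the nascent rule. Of the measured Cdx and caudal genes, 0 of 5 were higher at E7.0, 4 of 8 at E7.25 and 2 of 8 at E7.5 posterior, and Fgf8 was lower at E7.0 (log2 -1.54). Hoxb1 had log2 ratios of 1.59, 2.37 and 2.02 by rising stage. Pdlim4, an actin-binding protein, had 1.07, 1.10 and 1.29, and Rspo3 0.94, 1.51 and 1.24. T had 0.93, 1.16 and 0.69, and Meis2, a homeobox partner of Hox proteins, 0.71, 1.09 and 1.03. The other genes of highest smallest ratio were Aplnr, Fgfr1, Dll3, Ifitm1, Dock11, Fst, Igfbp4 and Phlda2. Lhx1 was lower, with -1.09, -2.04 and -2.19. Eomes was set to 0 by the rule.

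Against rostral paraxial cells, chosen by Tcf15 or Alx1 with a second paraxial gene, several posterior genes were also higher in members. At E7.5 posterior 2.14% of 5365 genes were higher and 1.27% lower, and at E7.25 3.66% and 4.49% of 5705. At E7.0 there were 32 rostral cells, which were not compared. T was at 638 CPM in members and 120 in rostral cells at E7.5 posterior (log2 2.41), and at 746 and 58.1 CPM at E7.25 (3.68). Cdx2 had ratios of 2.39 and 3.30, and Fst (follistatin, which binds activin) 2.13 and 3.09, in the E7.5 posterior library and the E7.25 library. Of 8 measured Cdx and caudal genes 7 were at least 2-fold higher at E7.5 posterior, as were 6 of 11 FGF genes. Fgf8 is counted in both lists, and no gene of either list was at least 2-fold lower. Sparc, Vcan and Fbn2, matrix genes, were lower in both libraries, while Lamb1 was higher at E7.5 posterior (log2 1.37) and Nid2 at E7.25 (1.81), among 9 measured in E7.5 posterior members and 11 in E7.25 members. Others that led over rostral cells were Tcea3, Epha1, Pmaip1, Frzb, Bex1, Hoxb1, Rtl8b, Bex4 and Syngr2.

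**Figure D4:**
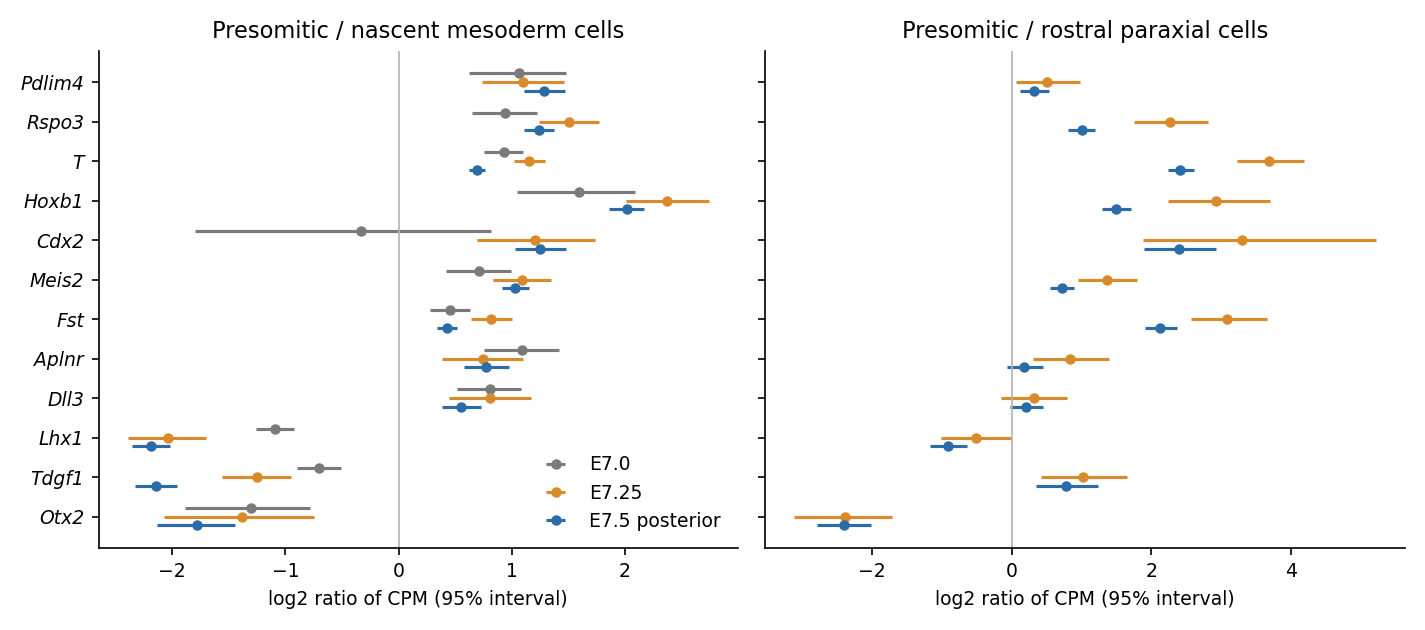
Log2 ratio of CPM in members over nascent mesoderm cells (left, 3 libraries) and over rostral paraxial cells (right, 2 libraries), with 95% intervals for counting error. Lhx1 and Otx2 lie below 0 on both sides, and T, Hoxb1 and Meis2 lie above 0 on both sides.

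Members varied among themselves by Aldh1a2. The planned division by Msgn1 and Aldh1a2 left 36 cells with both, 17 with Msgn1 only and 406 with Aldh1a2 only at E7.5 posterior, so the cells were divided by Aldh1a2 alone after the data had been seen. Aldh1a2 is a rule marker, and a cell with it needed only 1 other marker. At E7.5 posterior 442 members had it and 299 did not, with median depths of 8940.5 and 9367 UMIs. At E7.25 it was 50 and 99, with medians of 7483 and 8603 UMIs. Members with Aldh1a2 were at least 2-fold higher in 0.266% of 5264 genes at E7.5 posterior and lower in 0.171%, and at E7.25 in 4.54% and 3.16% of 5702.

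Cyp26a1, Lefty2, Lhx1 and Tdgf1, named after their values were seen, were at least 2-fold lower in members with Aldh1a2 in both libraries. Cyp26a1 was at 6.38 CPM with Aldh1a2 and 43.4 CPM without at E7.5 posterior (log2 -2.77, -3.41 to -2.17). At E7.25 it was at 7.64 and 62.1 CPM (-3.02, -5.34 to -1.40), from 3 and 56 UMIs. Read by stage, members without Aldh1a2 had 62.1 CPM of Cyp26a1 at E7.25 and 43.4 CPM at E7.5 posterior. Those with it had 7.64 and 6.38 CPM. After thinning to 5000 UMIs, Cyp26a1 was detected in 2.47% and 15.7% of members with and without Aldh1a2 at E7.5 posterior, and in 4.88% and 20.9% at E7.25. Unthinned, the shares were 4.3% and 22.7% at E7.5 posterior, and 4% and 29.3% at E7.25. In visceral endoderm cells of those libraries it was detected in 22.6% and 19.9% after thinning, above the share in members with Aldh1a2. At E7.5 posterior this was also above the share in members without Aldh1a2, and at E7.25 it was close to it. Lefty2 had ratios of -1.91 and -2.14, Lhx1 -1.54 and -1.82, Tdgf1 -1.5 and -1.75, Mixl1 -1.13 and -0.86 and Mesp1 -0.98 and -1.37, in the E7.5 posterior library and the E7.25 library. Acvr2b of the NODAL list had 0.33 (0.06 to 0.61) and 0.26 (-0.18 to 0.70). Myl7, a myosin chain of the heart, had -1.62 and -1.66. With at least 3 markers it had -0.69 and -0.71, and with the rule read after thinning 0.057 at E7.25.

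Hoxb1 and Vim were higher in the same cells. Hoxb1 was at 323 CPM with Aldh1a2 and 196 CPM without at E7.5 posterior (0.72, 0.58 to 0.86), and at 321 and 152 CPM at E7.25 (1.08, 0.72 to 1.44). Vim, the mesenchymal intermediate filament, had 0.73 and 0.85, and Pdlim4 0.77 and 1.18. Rspo3 had 0.61 and 0.94, while T had -0.14 and -0.36. Tbx6, a rule marker whose ratio the choice of cells sets in part, had -0.01 and -0.23. Rdh10, which makes retinaldehyde for Aldh1a2, was at 26.0 CPM with Aldh1a2 and 9.15 CPM without at E7.5 posterior (1.5, 0.89 to 2.17).

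Msgn1 divided the cells less evenly. The 53 members with Msgn1 in the E7.5 posterior library, against the 688 without, were at least 2-fold higher in 0.981% of 5502 genes and lower in 0.927%. Cyp26a1 was at 9.21 CPM with Msgn1 and 22.2 CPM without (log2 -1.27, -2.91 to -0.02), from 5 and 151 UMIs.

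**Figure D5:**
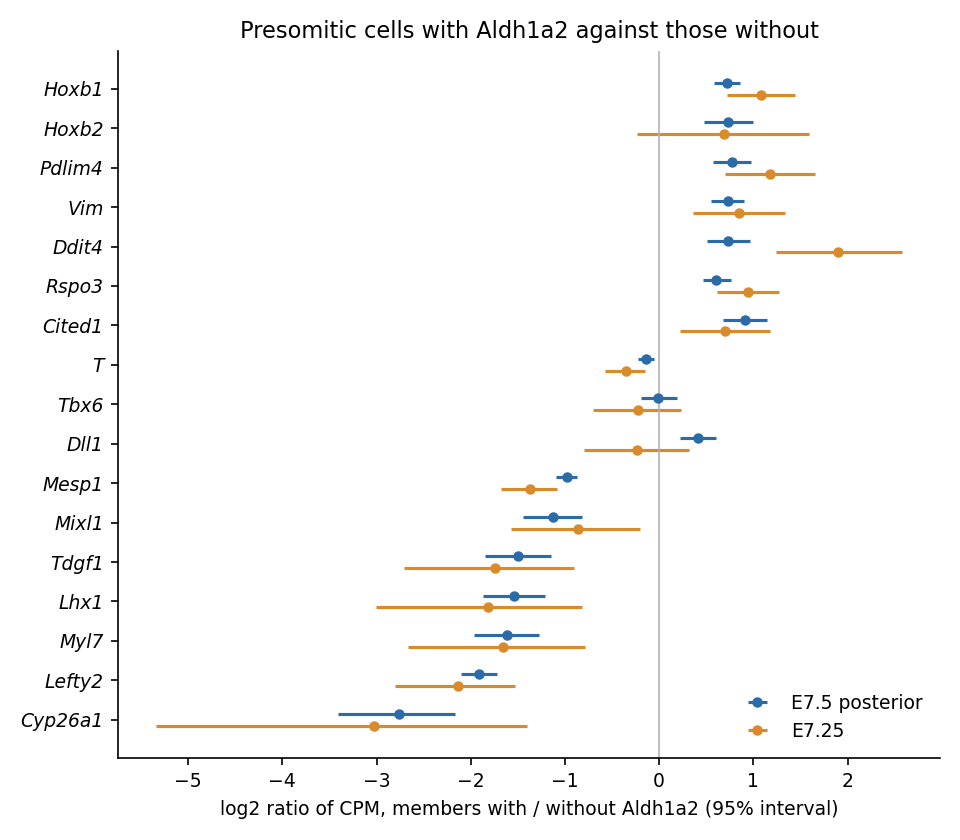
Log2 ratio of CPM in members with a UMI of Aldh1a2 over members without one, for E7.5 posterior and E7.25, with 95% intervals for counting error. From Mesp1 to Cyp26a1 all points lie below 0 in both libraries, and from Hoxb1 to Cited1 all lie above 0.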

How the data were processed

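The deposited files hold raw counts of UMIs per gene and barcode, per the file headers, written by the authors with Cell Ranger 6.0.1 for 3 droplet libraries of the 3' protocol, version not given per library. No source used here gives the genome build or the strand setting. Of 32285 gene identifiers 32235 were found in GENCODE M21 (GRCm38), which gave coordinates. The files held 10232, 6173 and 11468 barcodes and 111010034, 48836272 and 92190474 UMIs in order of stage, and 14 to 35 barcodes were shared by a pair of libraries.

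Cells with 1000 or more genes and at most 10% mitochondrial UMIs were kept, and predicted doublets, of which 1, 2 and 46 were members, were kept. At E7.5 posterior the automatic limit marked 0 cells, so the 570 highest scores were taken there instead. UMIs were summed over the cells of a class and scaled to 1000000 (CPM). Genes at 20 CPM or more on at least 1 side were measured and counted when 2-fold apart. A side with 3 UMIs or fewer was set at 3. Levels have Poisson intervals, ratios conditional binomial ones and shares Clopper-Pearson ones, all at 95%. Classes under 50 cells were not compared. Named genes are list genes reaching 20 CPM, the 8 at each end of the ratio of E7.5 posterior over E7.25 among those reaching 50 CPM, and the 12 that led over each similar class. Rankings skip sex-linked transcripts (Xist, Tsix, Y genes), mitochondrial and ribosomal genes, and Gm and Rik names. Sparc, Vcan, Fbn2, Col4a2, Lama1 and the genes of the division by Aldh1a2 were picked from the lists after their values were seen.

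The members and lists were chosen with earlier results of these data known. Doublet scores came from Scrublet in scanpy 1.11.5, TMM factors from edgeR 4.0.16 in R 4.3.3, and sums from Python 3.11.15 with numpy 2.4.6 and scipy 1.17.1. Ratios were tried on simulated counts with Poisson spread only, so that trial does not cover spread between cells or embryos. Some genes that the rule would name are not reported here.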

Additional observations from a re-analysis of the deposited data

Results flagged for a closer look

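Ttr, a visceral endoderm transport protein, and Spink1, a secreted protease inhibitor, went opposite ways in the division of members by Aldh1a2. For Ttr the log2 ratio of members with Aldh1a2 over members without was 1.87 in the E7.5 posterior library and -2.21 in the E7.25 library. For Spink1 it was 1.29 and -1.83. The difference between libraries was not tested. One cell held 61.1% of Ttr UMIs and 1 cell 28.5% of Spink1 UMIs at E7.5 posterior, and 66.7% and 59.4% at E7.25.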

How the results depend on the processing

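No paired analysis was possible because each group is 1 library. With at least 3 of 5 markers the shares were 0.113%, 0.982% and 4.72% by stage, and after thinning 0.614%, 1.84% and 7.20%. Without Aldh1a2 in the rule the E7.5 posterior share was 7.24%. These settings left 9 and 45 members at E7.0 (3 markers and thinning), under the limit of 50, so comparisons with them were not run. That limit was applied to the alternatives after their values had been seen.

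Numbers of genes past 2-fold, E7.5 posterior against E7.25, were 80 higher and 67 lower. With 3 markers they were 202 and 192, with thinning 110 lower, and with no minimum on CPM 380 and 437. With no minimum they were 704 and 342 for E7.5 posterior against E7.0, and 1007 and 380 for E7.25 against E7.0. Against nascent cells they were then 234 and 357 at E7.0, 379 and 515 at E7.25, and 522 and 466 in the E7.5 posterior library. Against rostral cells they were 496 and 543 at E7.25 and 588 and 452 in the E7.5 posterior library. With 3 markers, E7.25 gave 162 higher and 242 lower against nascent cells and 324 higher against rostral cells. At 5% mitochondrial UMIs, 66 genes in the E7.25 library and 26 in the E7.5 posterior library were lower than in nascent cells. Thinning gave 58 higher than nascent cells at E7.5 posterior, and means of per-cell CPM 87 at E7.25.

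Of ratios of single genes, 2394 stayed within their limits, 124 moved and 14 reversed. The 14 were all past 2-fold as reported, and changes of sign in smaller ratios were not counted apart. Without predicted doublets the Aldh1a2 ratio at E7.5 posterior was -0.30 for Ttr and -0.72 for Spink1. With 3 markers, E7.5 posterior against E7.25 gave 1.31 for Ttr and 0.0053 for Apom, and the Aldh1a2 ratio at E7.25 was 0.29 for Ttr and 0.62 for Spink1. With thinning, the Aldh1a2 ratio at E7.25 was 0.057 for Myl7, 1.85 for Spink1 and 2.66 for Ttr, and at E7.5 posterior -1.75 for Ttr. Without the members that met the visceral endoderm rule, an alternative chosen after seeing the data, E7.5 posterior against E7.0 gave 0.053 for H19 and 0.21 for Rbp4, and E7.25 against E7.0 gave 1.89 for Apoc2. Ttr by Aldh1a2 was then -0.42 at E7.5 posterior. Apart from the removal of those members, the cause was not tested. Depth limits genes of few UMIs, such as Cyp26a1 with 3 UMIs in E7.25 members with Aldh1a2.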
